A study of Mus musculus with 5 samples.

Results

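Cycling synovial sarcoma (SyS) cells were the tumour cells that carried transcripts of the mitotic programme at the time of dissociation, and they were compared with cells of the same tumours that carried none. The members were chosen by measured values, with a rule of 2 steps. The SyS gate kept cells with at least 750 detected genes, at most 25% mitochondrial UMIs, at least 3 of 8 SyS genes detected (*Adgrb3*, *Sox11*, *Tle1*, *Hmga2*, *Reln*, *Nxph1*, *Epha5* and *Gpc3*) and at most 1 UMI in all of *Ptprc*, *Cdh5*, *Csf1r* and *Rgs5*, which mark immune cells, endothelium, macrophages and pericytes. A UMI is a molecular barcode that lets each captured RNA molecule be counted 1 time. A gate cell was called cycling when *Mki67*, *Top2a*, *Cenpf*, *Birc5*, *Ube2c*, *Cdk1* and *Tpx2* together had at least 5 UMIs, and non-cycling when they had 0. The rule found 7150 cycling cells among 30700 gate cells and 51670 called cells in all, beside 13787 non-cycling cells and 9763 cells with 1 to 4 UMIs that entered neither side.

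The cells came from 5 *hSS2* tumours of mice expressing *SS18::SSX2*, the fusion oncogene of SyS, both the oncogene and an EGFP reporter being induced by an injection of TATCre protein in the limb. The labels give 2 tumours as biphasic (BP), and 1 each as monophasic (MP), as MP+BP and as PD+MP, where PD stands for poorly differentiated. All 5 carry the fusion, no tumour lacks it, and the labels give no sex, age or treatment. Both BP labels begin with the same number, and whether those tumours came from 1 animal is not stated, so p-values over 5 tumours may rest on fewer than 5 animals. Below, values of single tumours follow the order BP replicate 1, BP replicate 2, MP, MP+BP and PD+MP.

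A dividing cell copies its DNA in S phase and separates the copies in mitosis, and each stage has its own transcripts. Transcripts of histone, helicase and clamp genes such as *Pcna* peak in S phase, whereas those of spindle, kinetochore and ubiquitin ligase genes accumulate in G2. The rule used genes of the later stage. *Mki67* encodes a protein that coats mitotic chromosomes, *Top2a* the topoisomerase that untangles them, *Cenpf* a kinetochore protein, and *Birc5* (survivin) a subunit of the chromosomal passenger complex. *Ube2c* encodes an enzyme that helps to degrade mitotic cyclins, *Cdk1* the kinase that drives mitosis, and *Tpx2* a spindle assembly factor. A cell early in G1 or out of the cycle is expected to hold few of these RNAs, so the non-cycling side can hold cells that will divide again.

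The sequences just upstream of these genes show what they have in common outside the rule. Late cell cycle promoters often hold a CHR element beside CCAAT boxes, and S phase promoters often hold E2F sites. The stretches below run 5′ to 3′ over 150 bases ending at the base before the RefSeq start site (GRCm38.p6). They were chosen to set 2 rule genes beside 2 genes of the identity lists that were higher in cycling cells. Capitals mark matches on either strand to 3 motifs. The CHR element was searched as TTTGAA and, in its other common form, as TTCGAA. The box named for its letters was searched as CCAAT. The E2F site was searched in 4 forms, namely TTTCCCGC, then TTTGGCGC, then TTTGCCGC and last TTTCGCGC. *Top2a* lies at chr11:99024190-99024339 and *Cdk1* at chr10:69352913-69353062, both on the minus strand. *Suz12* lies at chr11:79992956-79993105 and *Epcam* at chr17:87635829-87635978, both on the plus strand. Each stretch is promoter sequence before the RefSeq start, and that of *Cdk1* overlaps the 5′ end of the GENCODE gene.
Top2a: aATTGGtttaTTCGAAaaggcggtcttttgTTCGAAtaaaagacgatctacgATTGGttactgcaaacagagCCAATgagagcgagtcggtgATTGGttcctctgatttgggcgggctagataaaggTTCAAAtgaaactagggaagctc
Cdk1: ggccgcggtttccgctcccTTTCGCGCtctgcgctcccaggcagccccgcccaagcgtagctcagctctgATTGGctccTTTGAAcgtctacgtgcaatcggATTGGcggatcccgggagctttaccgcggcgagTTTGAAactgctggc
Suz12: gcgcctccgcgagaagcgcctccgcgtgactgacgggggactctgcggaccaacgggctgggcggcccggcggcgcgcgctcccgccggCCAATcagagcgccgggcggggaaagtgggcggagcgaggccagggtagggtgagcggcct
Epcam: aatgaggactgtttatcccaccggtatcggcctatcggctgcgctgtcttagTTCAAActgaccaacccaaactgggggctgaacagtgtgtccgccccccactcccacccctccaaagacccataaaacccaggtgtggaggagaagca
Over the RefSeq windows from 250 bases before to 50 bases after each start, a CHR match was present in 5 of the 6 rule genes that had a window and in 31 of 41 genes of a G2 and M list (75.6%), against 5854 of 27025 genes in all (21.7%). E2F matches were held by 14 of 32 S phase genes (43.8%) and by 2.61% of all genes. Among the identity genes described below, 12 of 67 that were higher in cycling cells held a CHR match (17.9%), as did 12 of 56 that were lower (21.4%). These matches are letters in a window and not measured binding. Identity genes that did not pass the test held a CHR match in 16 of 123 (13.0%). A CCAAT match was held by 53.7% of the higher, 39.3% of the lower and 39.0% of the uncalled identity genes, by 78.0% of the G2 and M list and by 41.1% of all genes. E2F matches were held by 3 of the higher, 0 of the lower and 7 of the uncalled identity genes.

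Cycling cells were found in every tumour and made up 15.1% of gate cells in BP replicate 1 (95% exact binomial interval 14.0 to 16.2), 21.8% in BP replicate 2 (20.9 to 22.8), 28.0% in MP (26.8 to 29.2), 15.7% in MP+BP (14.8 to 16.6) and 34.3% in PD+MP (33.1 to 35.4). The highest shares lay in MP and PD+MP, the tumours without BP in their label, and both BP tumours differed from each other by more than their intervals. The intervals cover counting error only, and with 1 or 2 tumours per label the order was not tested. Since cells with more UMIs reach 5 UMIs more easily, each cell was also thinned to 5000 UMIs, which left out 6345 shallower gate cells, 556 of them cycling. The shares were then 9.34%, 17.2%, 20.4%, 13.3% and 29.8%, with PD+MP and MP again highest and BP replicate 1 lowest. As a level for other cells, cells marked as macrophages by at least 20 UMIs of *C1qa*, *C1qb* and *C1qc* reached 5 UMIs of the 7 genes in 11.7%, 6.18%, 22.2%, 7.10% and 14.9% of cells, at median depths of 7173, 5253, 7417, 4790 and 6793 UMIs against 11409.5, 9595, 9893, 7711 and 8985 in gate cells. Macrophages can divide, so this level is not free RNA alone. The macrophage level lay below the gate share in all 5 tumours, with intervals that overlapped in BP replicate 1 (9.60 to 14.1 for macrophages). Cells marked as neutrophils, by at least 20 UMIs of *S100a8* and *S100a9*, were few. They reached 5 UMIs in 7 of 65 cells in BP replicate 1 (10.8%, interval 4.44 to 20.9) and 7 of 23 in BP replicate 2 (30.4%, 13.2 to 52.9). The latter stood above the gate share of that tumour, with an interval that included it. The counts were 1 of 21 in MP, 0 of 3 in MP+BP and 0 of 1 in PD+MP.

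**Figure D1:**
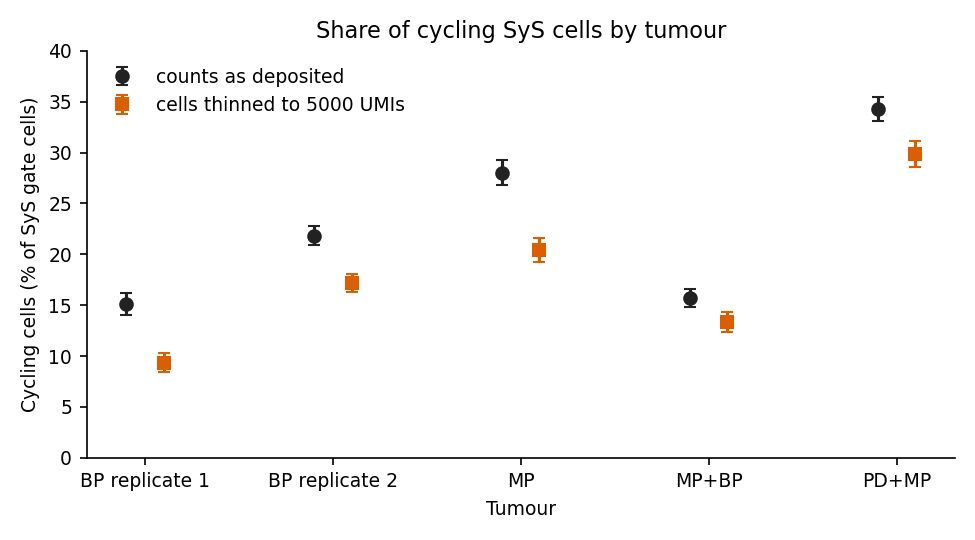
Share of cycling cells among SyS gate cells (y axis, percent) in each of the 5 tumours (x axis), from the counts as deposited (circles) and after every cell was thinned to 5000 UMIs (squares). Bars are 95% exact binomial intervals. PD+MP stands highest in both series, at 34.3% and 29.8%, and BP replicate 1 lowest, at 15.1% and 9.34%.

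The label was checked against cell cycle genes that the rule did not use. These RNAs rise and fall together with the rule genes, so their levels describe the members and were not tested. All 44 genes of an S phase list were higher in cycling than in non-cycling cells, with a median log2 fold change of 1.64, and so were all 45 genes of a G2 and M list, with a median of 4.22. *Pcna*, the DNA polymerase clamp, stood at 161, 169, 194, 228 and 287 CPM (UMI counts scaled to a common library total) in cycling cells against 60.5, 59.1, 54.8, 69.1 and 86.7 in non-cycling cells. *Hmgb2*, a chromatin protein of dividing cells, was at 936, 1341, 1432, 1232 and 1530 CPM against 143, 142, 162, 105 and 208. The lowest cycling value exceeded the highest non-cycling value for both genes. Outside all lists, the largest increases were those of *Depdc1a*, *Cep55*, *Esco2*, *Pimreg* and *Hist1h1b*, with log2 fold changes from 5.90 to 6.18. *Cep55* acts in the final cut between daughter cells, *Esco2* in sister chromatid cohesion, and *Hist1h1b* encodes a linker histone made in S phase. Of the rule genes themselves, *Top2a* was the most abundant, at 284, 463, 410, 479 and 546 CPM, and *Tpx2* the least, at 106, 160, 160, 159 and 180. Both are at 0 in non-cycling cells by the rule.

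The threshold did not fall in a gap. Cells with 4 UMIs of the 7 genes, just outside it, numbered 74, 178, 144, 114 and 197, and cells with 5, just inside, numbered 47, 115, 109, 79 and 163. The summed level of the G2 and M list ran from 1455 to 2433 CPM across tumours at 4 UMIs and from 1689 to 2665 CPM at 5. Members held a median of 21, 25, 23, 22 and 24 UMIs of the 7 genes, so most lay well above the threshold. The composition of the RNA shifted with the count. Relative to cells with 0 UMIs, the S phase list was higher by 1.15 ± 0.14 (log2, SD, n = 5 tumours) in cells with 5 to 9 UMIs and by 1.71 ± 0.10 in cells with 20 or more, whereas the G2 and M list went from 1.02 ± 0.17 to 2.77 ± 0.16.

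Cycling cells were larger libraries, and this bears on every comparison that follows. Their median UMI count was 21802, 15980.5, 17505, 14050 and 14931.5, against 9284, 7833, 7619, 6356 and 5806 in non-cycling cells, from 2.04 to 2.57 times as many. The rule was itself a UMI count, which deeper cells reach more easily, and its part in this gap was not tested. Levels below are therefore UMI counts summed per tumour and class and scaled to CPM, so that "higher" means a larger share of the cell's RNA. The share of the summed RNA that came from 92 ribosomal protein genes was lower in cycling cells in all 5 tumours, from 8.28% to 14.7% against 9.74% to 17.01%, as was the mitochondrial share (3.35% to 4.51% against 4.27% to 6.15%). The part of these shifts in the results was not tested. Scrublet scores placed 8.66% to 13.6% of cycling and 2.53% to 5.12% of non-cycling cells among the likely doublets, which were kept in the main comparison and left out in an alternative. Of 51437 distinct barcodes, 231 occurred in more than 1 library (0.449%).

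Markers of other cell types were present on both sides, at levels that differed by type. The summed level of 10 macrophage markers ran from 29.4 to 76.6 CPM in cycling and from 42.2 to 115 CPM in non-cycling cells, against 4703 to 16440.3 CPM in the other cells that passed the filter, and 5 of the 10 were called lower in cycling cells and 0 higher. Endothelial markers were nearer to the level of other cells and higher in cycling cells in 4 of 5 tumours, at 235, 131, 130, 160 and 57.1 CPM against 161, 88.9, 115, 148 and 58.4, with 318 to 1512 CPM in other cells. Mural markers ran from 36.7 to 124 CPM in cycling and from 32.1 to 162 CPM in non-cycling cells, against 291 to 886 CPM. Erythroid markers were at 62.7, 37.0, 108, 9.0 and 8.4 CPM in cycling and 183, 63.7, 14.3, 6.5 and 22.7 CPM in non-cycling cells, so that BP replicate 1 and MP differed in direction, and other cells of BP replicate 1 had 257 CPM. The part of these transcripts in the results was not tested. EGFP, which is co-expressed with the fusion, was at 42.8, 40.2, 35.6, 31.6 and 40.8 CPM in cycling and 37.9, 33.5, 26.6, 27.1 and 30.7 CPM in non-cycling cells. It was higher in cycling cells in all 5 tumours by 0.30 ± 0.05 (log2, SE, edgeR adjusted p = 0.0018). In cells of 8000 to 16000 UMIs the difference was 0.13 ± 0.10, with adjusted p = 0.32.

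The question put to these cells was which SyS identity genes change with cycling. Across 17982 genes, leaving out those of the rule and the gate, 3522 were higher in cycling cells (19.6%) and 4041 lower (22.5%) at an edgeR adjusted p under 0.05 with the tumour as a block, which is the background for each list below. With no tumour block, 599 were higher and 66 lower. The identity lists held 367 genes outside the rule, of which 345 could be tested. Of these, 88 were higher (25.5%), 73 were lower (21.2%) and 184 did not pass the test. The median log2 fold change was 0.02, beside -0.03 over all genes. The identity lists include polycomb and BAF genes, which are chromatin regulators rather than markers of SyS. Those lists had the largest shares called higher, so the 25.5% is not a value for SyS markers alone. Among identity genes, changes beyond a log2 fold change of 1 were few and mostly downward, with 3 genes higher and 15 lower. Over all genes, 602 were higher and 285 lower by that much. That background still holds the S phase and the G2 and M genes, which rise with the choice of members. The SAT list had its cell cycle genes taken out. How much of the 19.6% and of the 602 follows from the choice of members was not tested.

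**Figure D2:**
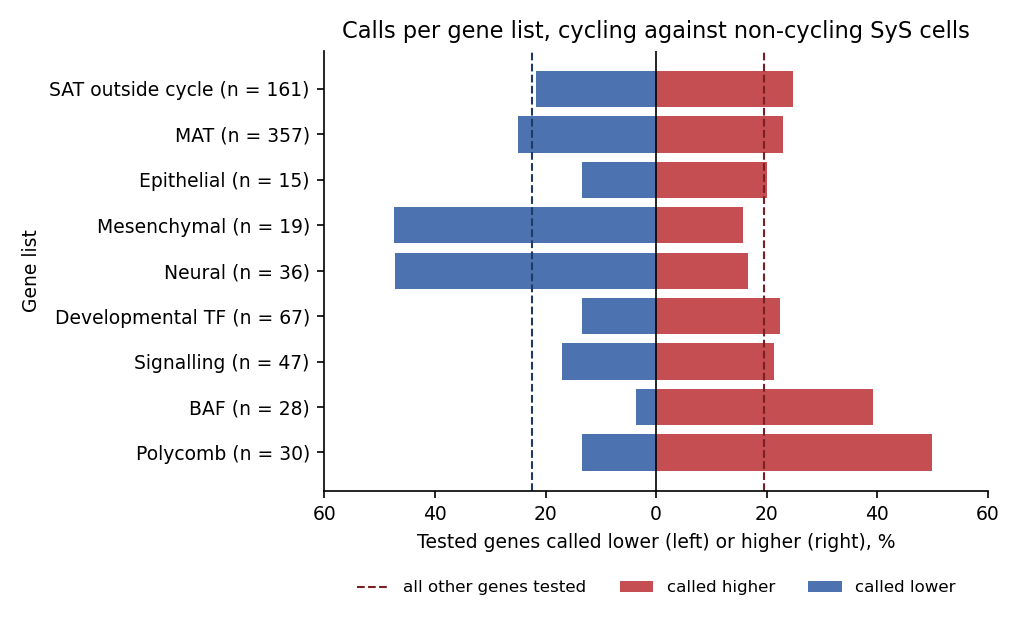
Percentage of tested genes in each list (y axis, n in brackets) called lower (left, blue) or higher (right, red) in cycling cells. Dashed lines give the same percentages over all 17982 genes tested, 22.5% lower and 19.6% higher. The polycomb and BAF bars reach past the line on the right and the neural and mesenchymal bars past the line on the left.

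The activated programme of the fusion gave calls in both directions. The study's sarcomagenesis activated transcription (SAT) genes are those that the tumours transcribe and their mesenchymal progenitors do not. Of 161 tested SAT genes outside the cell cycle, 40 were higher (24.8%) and 35 lower (21.7%), close to the background in both directions, with a median log2 fold change of 0.01. Their summed level in cells with 20 or more UMIs of the rule genes lay above that in cells with 0 by 0.11 ± 0.06 (log2, SD, n = 5). Another 9 SAT genes outside the rule belong to the cell cycle themselves, such as *Pbk*, *Neil3* and *Aurkb*, and all 9 were higher, as follows from the choice of members. Of 357 maintained active transcription (MAT) genes, which the cells of origin already express, 82 were higher (23.0%) and 89 lower (24.9%). The most abundant MAT genes were ribosomal protein genes such as *Rps14* and *Rpl30*, which fell by 0.41 ± 0.04 and 0.39 ± 0.05 (log2, SE, edgeR adjusted p = 4.3e-05 and 0.00011).

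Genes that the study used to separate SyS cell states divided. *Epcam*, an epithelial adhesion molecule, stood at 204, 243, 112, 113 and 119 CPM in cycling cells against 138, 152, 77.7, 42.8 and 77.6 in non-cycling cells, and was higher in every tumour (log2 0.75 ± 0.11, SE, edgeR adjusted p = 0.00039). *Zic1*, a neural transcription factor, was at 142, 156, 21.7, 6.41 and 13.6 CPM against 138, 158, 19.1, 7.17 and 11.2, a difference of 0.06 ± 0.06 with no call (adjusted p = 0.44, edgeR). Its level spanned more than an order of magnitude between tumours and differed little between the classes within each tumour. *Nnat*, an imprinted neuronal membrane protein gene, likewise had a difference of 0.05 ± 0.09 (edgeR adjusted p = 0.64), and *Sox2*, a stem cell transcription factor, of 0.15 ± 0.07 (edgeR adjusted p = 0.086). *Sox2* passed the test in cells of 8000 to 16000 UMIs, where the difference was 0.26. *Penk*, which encodes enkephalin precursors, was lower in cycling cells in all 5 tumours and is described with the neuropeptides below.

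The gate genes, described without a test because the gate used them, were mostly level. *Adgrb3*, a synaptic adhesion receptor, had 1849, 2964, 2015, 2068 and 2113 CPM in cycling and 1931, 3299, 1992, 1641 and 2162 CPM in non-cycling cells. *Sox11*, a transcription factor of neural progenitors, stood apart, at 156, 122, 211, 162 and 128 CPM against 116, 93.9, 146, 94.1 and 85.3. *Nxph1*, a secreted ligand of neurexins, was slightly lower in every tumour, at 95.3, 128, 192, 365 and 134 CPM against 107, 150, 205, 418 and 149.

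Among the identity lists, polycomb genes had the largest share called higher. Beyond the rule genes, cell cycle genes were taken out of the SAT list alone. Polycomb and BAF genes that vary with the cell cycle can therefore travel with the choice of members, and this part was not tested. Polycomb complexes silence developmental genes, PRC2 by methylating histone H3 and PRC1 by ubiquitinating histone H2A, the mark to which the SSX part of the fusion binds. Of 30 genes, 15 were higher (50%) and 4 lower (13.3%), with a median log2 fold change of 0.13. *Ezh2*, the catalytic subunit of PRC2 (chr6:47530139-47595341, GRCm38), had 221, 329, 218, 238 and 619 CPM in cycling cells against 114, 124, 102, 84.8 and 279 in non-cycling cells. The cycling value was the higher one in each tumour, and the fit gave 2.33-fold (log2 1.22 ± 0.07, edgeR adjusted p = 7.4e-07). *Suz12*, another PRC2 core subunit, had 129, 156, 138, 156 and 199 CPM against 92.4, 105, 89.2, 90.3 and 128, so that the classes did not overlap even across tumours (log2 0.62 ± 0.05, adjusted p = 6.3e-06 in edgeR). *Eed*, the third core subunit, was higher by 0.27. *Phf19*, an accessory subunit that brings PRC2 to CpG islands, had the largest difference of the list, 2.19 ± 0.31, at a level of 6.49 to 9.70 CPM against 0.396 to 2.78.

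Not every polycomb gene followed. The lower genes were *Ring1*, *Phf1*, *Ezh1* and *Jarid2*, with log2 fold changes from -0.37 to -0.31. *Ezh1* encodes the alternative PRC2 enzyme of non-dividing cells. In PRC1, *Bmi1* (0.95), *Cbx2* (0.89) and *Pcgf5* (0.69) were higher, and so was *Kdm2b* (0.15), which recruits the variant PRC1.1 complex. *Rnf2*, the E3 ligase that writes the H2A mark, had 114 CPM on average in cycling and 122 CPM in non-cycling cells with no call (log2 -0.10, edgeR adjusted p = 0.062). *Bcor*, the scaffold of PRC1.1, was likewise not called (0.02, edgeR adjusted p = 0.80).

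BAF genes also leaned upward. BAF complexes remodel nucleosomes, and SS18 is the subunit that the fusion alters. Of 28 genes, 11 were higher (39.3%) and 1 lower (3.57%), with a median of 0.11. Without MP+BP 7 were higher, in a fit where 2769 of 18054 genes were higher. *Actl6a*, the actin-like subunit of dividing progenitors, had 63.5, 64.5, 65.5, 69.7 and 85.2 CPM against 48.4, 46.5, 47.0, 42.1 and 57.0, with no overlap between classes (log2 0.53 ± 0.05, edgeR adjusted p = 4.1e-05). *Dpf1*, a subunit of neuronal BAF, had the largest change, 0.59 ± 0.16 (edgeR adjusted p = 0.014), at 5.91 to 13.3 CPM against 2.06 to 8.85. The catalytic subunits went separate ways, *Smarca4* higher by 0.27 and *Smarca2* lower by 0.21. The call for *Smarca2* was lost without BP replicate 2 or without PD+MP (edgeR adjusted p = 0.080 and 0.061), while its direction stayed. The *Ss18* entry, which the human fusion transcript may or may not reach, was at 66.4 to 88.9 CPM over both classes and was not called (log2 0.10, edgeR adjusted p = 0.086).

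Among identity genes with at least 5 CPM on average and the same direction in all 5 tumours, the largest called increases beside *Ezh2*, *Epcam*, *Pcgf5*, *Suz12* and *Dpf1* were those of *Cdca7l*, *Fgf8*, *Raet1e*, *Cnih2* and *Skor1*. *Fgf8*, a growth factor of early embryonic patterning centres (chr19:45736798-45742915, GRCm38), had 30.2, 29.1, 39.3, 27.5 and 52.3 CPM in cycling cells against 16.4, 11.2, 27.4, 12.5 and 39.7 in non-cycling cells. The difference was present in every tumour (log2 0.85 ± 0.13, edgeR adjusted p = 0.00047) and larger in cells of 8000 to 16000 UMIs (1.43). *Cdca7l*, a partner of MYC, changed by 1.08 ± 0.07 from 7.71 to 21.6 CPM in non-cycling to 16.6 to 44.4 CPM in cycling cells. *Raet1e* encodes a ligand of the NKG2D receptor of NK cells, *Cnih2* an auxiliary protein of AMPA receptors and *Skor1* a corepressor of neural development, and they changed by 0.68 to 0.73.

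**Figure D3:**
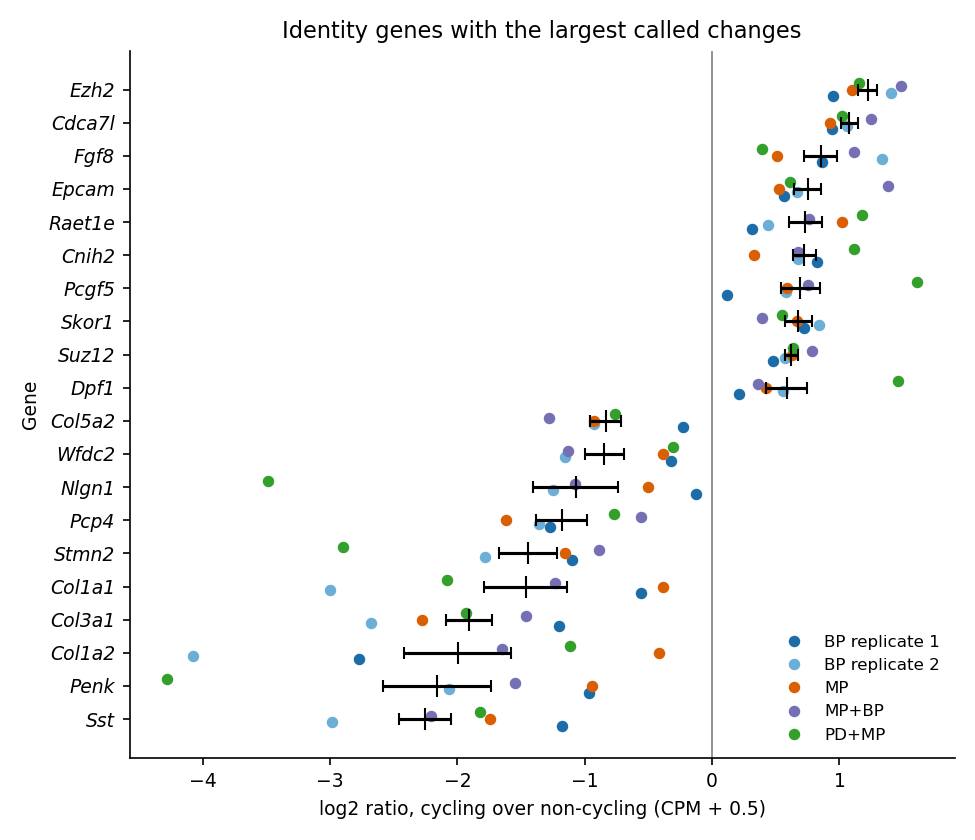
Log2 ratio of cycling to non-cycling CPM, with 0.5 CPM added to each (x axis), for the identity genes with the 10 largest called decreases and the 10 largest called increases among those with at least 5 CPM on average and the same direction in all 5 tumours (y axis). Coloured points are the 5 tumours, and black marks are the edgeR log2 fold change with its standard error. All points of a gene lie on the same side of 0, and the decreases spread more between tumours than the increases.

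Of 67 developmental transcription factors tested, 15 were higher in cycling cells (22.4%), near the background, and 9 were lower (13.4%), fewer than over all genes. The higher ones included *Sox1*, at 50.9, 34.3, 80.7, 57.3 and 87.6 CPM against 30.5, 27.4, 60.3, 40.7 and 56.1, and *Pax6*, at 25.7, 27.0, 34.9, 29.0 and 34.9 CPM against 18.8, 18.7, 21.5, 21.9 and 28.7. Both genes act in neural progenitors, and both were higher in each tumour, by 0.52 ± 0.06 and 0.47 ± 0.07 (edgeR adjusted p = 0.00012 and 0.00031, chosen after their values were seen). Lower ones included *Barx2* (-0.80), *Tcf21* (-0.75), *Prrx1* (-0.65), *Dlx5* (-0.31) and *Tbx3* (-0.21). *Meis2*, a homeobox gene among the abundant members, was at 334 CPM on average in cycling and 335 CPM in non-cycling cells and was not called.

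Genes of neuronal function were more often lower than higher. Of 36 tested, 17 were lower (47.2%) and 6 higher (16.7%), with a median log2 fold change of -0.27. Without BP replicate 2, 11 were lower and 8 higher, and the median was -0.14. Over all 17651 genes of that fit, 3025 were lower and 2848 higher. *Sst*, the precursor of the peptide hormone somatostatin (chr16:23889573-23890958, GRCm38), had 6.34, 18.9, 0.622, 28.3 and 4.45 CPM in cycling cells against 15.0, 153, 3.25, 132 and 17.02 in non-cycling cells. It was lower in all 5 tumours, by 4.76-fold in the fit (log2 -2.25 ± 0.20, edgeR adjusted p = 1.7e-05), and its UMIs per cell were also fewer in cycling cells in 4 of 5 tumours, although those cells were deeper. *Penk* had 5.63, 3.35, 1.58, 7.19 and 1.38 CPM against 11.5, 15.6, 3.51, 21.97 and 36.0, a log2 difference of -2.16 ± 0.42 (edgeR adjusted p = 0.0026). *Stmn2*, a microtubule regulator of growing axons, had 13.7, 13.9, 8.996, 60.2 and 0.929 CPM against 29.9, 49.2, 20.6, 112 and 10.1 (log2 -1.45 ± 0.23, edgeR adjusted p = 0.00066).

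The neuropeptide RNAs came from few cells. With every cell thinned to 5000 UMIs, *Sst* was detected in 1.17% of cycling and 3.01% of non-cycling cells on average over tumours. In macrophage-marked cells the mean was 1.21%. Between tumours the thinned share ran from 0.15% to 3.19% in cycling and from 0.17% to 2.74% in macrophage-marked cells. The part of RNA from other cells in these shares was not tested. In the unthinned data *Sst* was seen in 2.48% of cycling, 3.16% of non-cycling and 1.43% of macrophage-marked cells. The 10 cells with most *Sst* held on average 86.6% of its UMIs in cycling and 66.8% in non-cycling cells. *Penk* was detected after thinning in 1.39% of cycling, 3.62% of non-cycling and 0.50% of macrophage-marked cells, and without thinning in 4.11%, 5.03% and 0.90%. Both genes were thus detected in few cells of either class.

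Other neural genes that were lower had roles in secretion and synapses, such as *Cbln4* (-1.70), *Snap25* and *Chga* (-1.73 and -1.59, both under 1 CPM on average) and *Nlgn1* (-1.07). The call for *Nlgn1* was lost without BP replicate 2 (edgeR adjusted p = 0.054) and without MP+BP (0.056 in the same test). *Cartpt*, another peptide precursor, had the lowest fitted value (-2.50, edgeR adjusted p = 0.00023), but MP went the other way. The 6 higher genes were *Elavl3*, *Map2*, *Nptx2*, *Insm1*, *Tubb3* and *Gap43*, by 0.32 to 0.51. *Map2* and *Tubb3* encode cytoskeletal proteins of neurons, and *Insm1* and *Elavl3* regulators that appear early in neuronal commitment. *Pcp4*, a calmodulin regulator, was lower in each tumour, at 1.06, 0.549, 23.4, 209 and 0.0238 CPM against 3.27, 2.19, 73.0, 308 and 0.396, and stood above 5 CPM only in MP and MP+BP.

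Among mesenchymal genes, those of the matrix were the ones with the largest differences. Of 19 tested, 9 were lower (47.4%) and 3 higher (15.8%), with a median of -0.16. *Col3a1*, a fibrillar collagen, had 32.6, 21.5, 5.997, 98.5 and 58.5 CPM in cycling cells against 75.5, 140, 31.0, 272 and 225 in non-cycling cells, lower in every tumour (log2 -1.91 ± 0.18, edgeR adjusted p = 2.5e-05). *Col1a1*, the main chain of type I collagen, had 57.3, 45.6, 56.7, 265 and 51.0 CPM against 84.7, 367, 74.4, 623 and 218 (log2 -1.46 ± 0.32, edgeR adjusted p = 0.0048). *Col1a2* (-1.996 ± 0.42) and *Col5a2* (-0.84 ± 0.12) were also lower, and the *Col1a2* call was lost with a stricter gate (-0.85, edgeR adjusted p = 0.081). *Cdh11*, a cadherin of mesenchyme that is not a collagen, had 154, 375, 61.9, 341 and 24.1 CPM against 250, 654, 84.5, 461 and 31.3 (log2 -0.56 ± 0.07, edgeR adjusted p = 0.00010). The 3 higher genes were *Snai2*, *Snai1* and *Cdh2* (0.52, 0.36 and 0.27). *Snai1* and *Snai2* encode repressors of epithelial genes, whereas *Twist1* and *Twist2*, other transcription factors of mesenchyme, were lower (-0.25 and -0.61).

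Some fibroblast and mast cell transcripts were also lower. Of 6 tested fibroblast markers, 4 were lower in cycling cells and none higher, with *Lum* at -2.34 and *Dcn* at -0.58. Without PD+MP 1 of 4 was lower, beside 3775 of 18186 over all genes. Their summed level was 53.9, 30.7, 101, 115 and 103 CPM in cycling, 42.5, 34.7, 115, 137 and 167 CPM in non-cycling and 144, 86.9, 237, 219 and 1331 CPM in other cells. It was thus higher in cycling cells in BP replicate 1, where the list median was 0.11 and *Col3a1* was lower, and *Dpt* was at 0 in both classes of both BP tumours and MP. After thinning, *Col3a1* was detected in 5.35% of cycling, 9.54% of non-cycling and 4.55% of macrophage-marked cells (8.92%, 11.8% and 5.23% unthinned). Outside the lists, the largest decreases were those of *Mgp*, *Cpa3*, *Ednra*, *Cma1* and *Abi3bp*. *Mgp*, a matrix protein that inhibits calcification, had 3.30, 22.8, 1.41, 152 and 64.7 CPM against 54.3, 189, 40.6, 597 and 951 (log2 -3.30 ± 0.31, edgeR adjusted p = 1.9e-05), with fewer UMIs per cell in all 5 tumours. *Cpa3* and *Cma1* encode mast cell proteases. Their non-cycling levels were uneven between tumours, from 0.12 to 36.8 CPM and from 0.029 to 43.7 CPM (scaled to total UMIs). Both calls were lost after thinning to 5000 UMIs (-0.65 and -0.58, edgeR adjusted p = 0.063 and 0.18). The part of RNA from other cells in the collagen, *Mgp* and protease differences was not tested.

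Of 15 epithelial genes tested, 3 were higher (20%; *Epcam*, *St14* and *Lsr*) and 2 lower (13.3%; *Crb3* and *Krt18*), beside 19.6% and 22.5% over all genes, so the list did not stand out. *Krt18*, a keratin of simple epithelia, had 33.6, 14.5, 25.7, 8.44 and 29.2 CPM in cycling cells against 42.1, 18.8, 36.5, 10.4 and 38.1 in non-cycling cells (log2 -0.38 ± 0.05, edgeR adjusted p = 0.00039). *Epcam* and *Krt18*, both epithelial by textbook role, thus went opposite ways in all 5 tumours. *Cldn3*, a tight junction gene, was not called (0.20 ± 0.17, edgeR adjusted p = 0.36).

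Of 47 signalling genes tested, 10 were higher (21.3%) and 8 lower (17.02%), close to the 19.6% and 22.5% of all genes. The number of lower signalling genes fell to 3 without BP replicate 2 or without MP+BP. Over all genes the lower calls fell too, to 3025 of 17651 and 3243 of 18054 in those fits. Beside *Fgf8*, the calls included *Notch1* (0.38), a Notch receptor, and *Hes1* (-0.23), a Notch target. *Id3*, a target of BMP signalling, had 539, 358, 176, 644 and 87.9 CPM against 768, 691, 294, 1284 and 160 (log2 -0.81 ± 0.07, edgeR adjusted p = 8.3e-06). Its difference was -0.31 in cells of 8000 to 16000 UMIs, where it remained called. *Igf2*, a fetal growth factor, *Bmp4* and *Id2* were lower as well (-0.57, -0.32 and -0.28).

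Cell cycle control genes of G1 showed both brakes and drivers. Of 22 tested, 13 were higher and 2 lower, and these genes too can travel with the choice of members. *Cdkn1a*, which encodes the inhibitor p21, had 251, 275, 185, 196 and 219 CPM in cycling cells against 222, 229, 113, 152 and 119 (log2 0.47). *Ccnd2*, the cyclin that starts G1 and the most abundant gene of the list, had 2580, 3213, 764, 1468 and 911 CPM against 3106, 4331, 797, 1779 and 1290 (log2 -0.31). *Cdkn1b* and *Cdkn1c*, the inhibitors p27 and p57, differed by 0.02 and 0.05. Beside them, 9 of 20 genes of the dissociation response were lower and 1 higher, with *Junb* at -0.27 and *Hsp90aa1* at 0.30. Of 23 hypoxia and glycolysis genes, 8 were lower and 3 higher, with *Ldha* at -0.23 and *Gapdh* not called (0.08, edgeR adjusted p = 0.28).

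**Figure D4:**
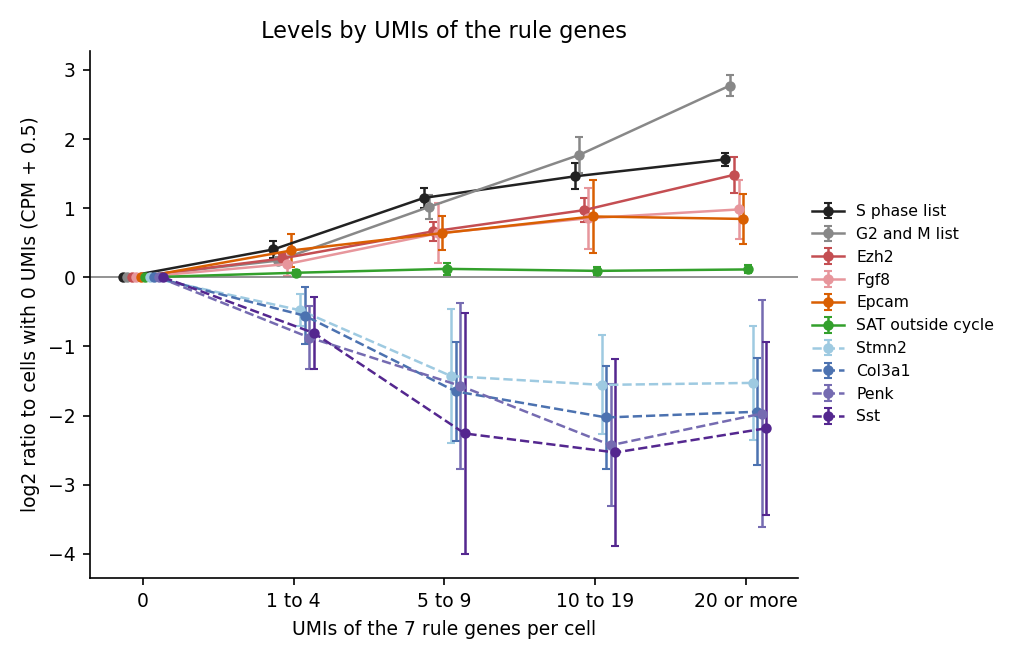
Levels of cell cycle lists, SAT genes outside the cycle and 7 identity genes in gate cells grouped by their UMIs of the 7 rule genes (x axis), as log2 ratio to cells with 0 UMIs (y axis, 0.5 CPM added). Points are means over 5 tumours and bars are SDs. *Sst*, *Penk*, *Col3a1* and *Stmn2* are already lower at 1 to 4 UMIs, the SAT list stays near 0, and *Ezh2*, *Epcam* and *Fgf8* lie above 0.

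The differences were present below the threshold as well. In cells with 1 to 4 UMIs of the rule genes, which entered neither class, *Ezh2* was higher than in cells with 0 by 0.27 ± 0.06 (log2, SD, n = 5) and *Epcam* by 0.39 ± 0.24, each in 5 of 5 tumours. *Sst* was lower there by 0.81 ± 0.52 and *Col3a1* by 0.56 ± 0.41, also in all 5. At 20 or more UMIs the corresponding values were 1.48 ± 0.26, 0.84 ± 0.36, -2.18 ± 1.25 and -1.94 ± 0.77. *Ezh2* kept climbing with the count, whereas *Epcam*, *Sst* and *Col3a1* changed little beyond 10 UMIs. Depth differed between these groups as well. Median UMIs at 0, 1 to 4 and 20 or more were 9284, 13573 and 25489 in BP replicate 1 and 5806, 8547 and 18779 in PD+MP. These groups were not matched for depth, and the part of depth in the gradients was not tested.

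Most identity calls were kept when cells of nearer depth were compared. With only cells of 8000 to 16000 UMIs on both sides, 155 of the called identity genes could be tested again, 149 had the same sign and 117 were called with that sign. None was called with the opposite sign. Over all genes, 66.9% of the higher and 53.9% of the lower calls were kept, with genes that the window could not test counted as lost. Cycling cells were still the deeper ones, with medians of 12269, 11672, 11774, 11227.5 and 11831 UMIs against 10772, 10254, 10072, 10151.5 and 10154. The SAT genes gave 39 higher and 40 lower of 147, with a median of -0.07. Over all genes in this window, 2991 were higher and 3285 lower of 14699, which is the background for these counts. The fibroblast markers gave 2 lower of 3 and the macrophage markers 1 lower of 9.

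**Figure D5:**
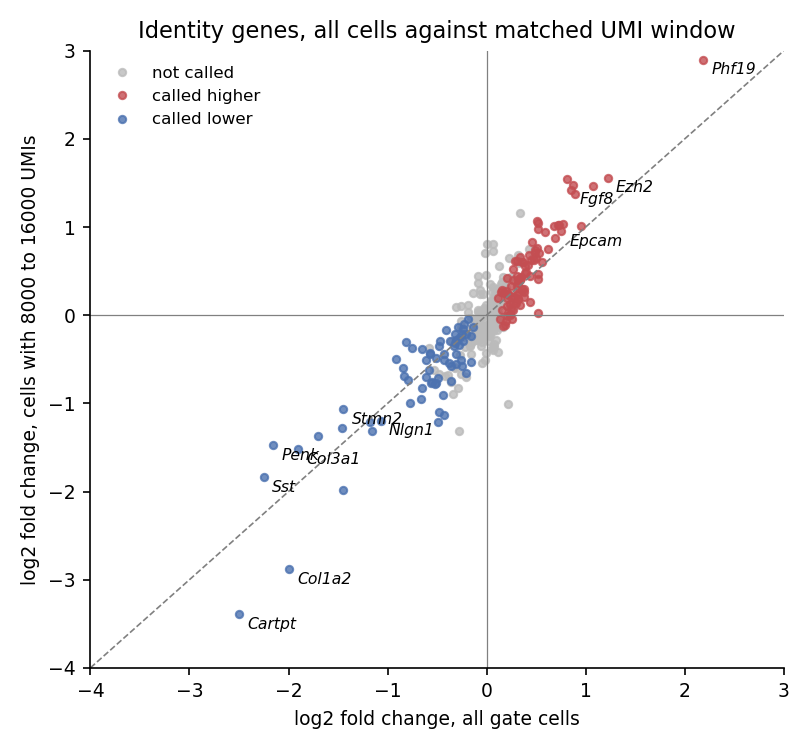
Log2 fold change of each identity gene between cycling and non-cycling cells over all gate cells (x axis) and over cells with 8000 to 16000 UMIs (y axis), coloured by its call over all cells. The dashed line marks equal values. Of 155 called genes, 149 lie on the same side of 0 in both.

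Whether the change with cycling differed by histology was asked with an interaction term, setting the 3 tumours with BP in the label against the 2 without. Of 17982 genes, 0 passed the edgeR test (0%), with 418 and 530 genes at an unadjusted p under 0.05 in each direction and a smallest adjusted p of 0.27. DESeq2 gave 14 calls, cells of 8000 to 16000 UMIs gave 2 in edgeR, and leaving out MP gave 3.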

How the data were processed

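Single-cell RNA-seq of 5 *hSS2* tumours was analysed from the raw UMI counts per gene and cell that the authors deposited, 1 filtered matrix per tumour. Per the file headers these counts were made with Cell Ranger 7.2.0, and per the labels the genome build was mm10. They were used as deposited. Total counts per tumour ran from 89996321 to 118649103 UMIs over 8931 to 11565 called cells, of which 42516 in all passed the filters of 750 genes and 25% mitochondrial UMIs.

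The members and gene lists were chosen with earlier results of these data known. SAT and MAT lists were those of the study, and the others were compiled from textbook roles. For each tumour, the counts of both classes were added up over cells, which gave 10 sums. These were compared with the quasi-likelihood test of edgeR 4.0.16 (filterByExpr, scaling by TMM, tumour as block, Benjamini-Hochberg adjusted p under 0.05 across all genes). Log2 fold changes are given with standard errors. Cells were not used as replicates. CPM values of single genes per class were computed here with TMM scaling. Summed marker levels, levels at the threshold and levels by UMIs of the rule genes were scaled to total UMIs alone. Doublets were scored with Scrublet in scanpy 1.11.5. Its automatic threshold marked no cell in 2 tumours, so an alternative removed the highest scores up to 0.8% per 1000 cells. Alternatives used DESeq2 1.42.0, other filters, other gates, thinning, a UMI window and each tumour left out. The edgeR step was tested on simulated data with 17729 genes. It recovered 60.3% of 63 genes changed by 0.5 on the log2 scale, 92.2% of 64 changed by 1 and 100% of 64 changed by 2. Of its calls, 12.5% were unchanged genes. The simulation changed a far smaller part of the genes than was called in the data, so these shares need not hold there.

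Named genes were *Epcam*, *Penk*, *Nnat*, *Zic1*, *Sox2*, EGFP and the rule and gate genes. To these were added the 10 largest called increases and decreases among identity genes and the 5 outside all lists (gene models without a symbol left out), each with 1 direction in 5 tumours and at least 5 CPM, and up to 4 of the most abundant genes of other lists. Genes named beyond this rule were chosen after their values were seen. Coordinates are from GENCODE M21 (GRCm38), and promoter windows from RefSeq (GRCm38.p6), without chromosome 18.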

Additional observations from a re-analysis of the deposited data

Results flagged for a closer look

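Over 43 sets of 5 tumour values, 3 had a tumour whose gap to the next exceeded Dixon's 95% critical value of 0.71, and chance alone flags about 1 set in 20. The log2 ratio of *Epcam* between cycling and non-cycling cells was 1.38 in MP+BP, against 0.53 to 0.67 in the other tumours. MP+BP also had the lowest *Epcam* level in non-cycling cells, 42.8 CPM. For *Dpf1* the ratio was 1.46 in PD+MP, against 0.21 to 0.56 elsewhere, on low levels of 6.52 and 2.06 CPM. The median log2 ratio of the signalling list was -0.10 in BP replicate 2, against 0.05 to 0.09 in the other 4 tumours. Causes were not tested.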

How the results depend on the processing

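Of the genes tested by name, none passed the test in the opposite direction under any alternative run. The classes were paired within each tumour by the tumour block. With no tumour block, 61 of their calls were lost, 599 genes were higher and 66 lower, and 0 SAT genes were called in either direction. The median log2 fold change of SAT genes was -0.0662 in cells of 8000 to 16000 UMIs and -0.0938 there with doublets left out, an alternative chosen after seeing the data. MAT genes gave -0.0897 and -0.0919 in these settings, -0.0788 when thinned and -0.0392 with the stricter gate. Polycomb genes gave 0.20 and 0.22 in the same pair of settings, and BAF genes 0.0631 in the latter. Leaving out 1 tumour at a time, the neural median ran from -0.36 to -0.14 and the interaction calls from 0 to 3, while DESeq2 gave 14 and the UMI window 2. The share of cycling cells averaged 13.2% over both BP tumours when thinned. In MP it was 22.4% in the window, 20.4% thinned, 26.6% without doublets, 21.1% at 10 UMIs, 29.3% with the stricter gate and 30.3% with the stricter cell filter. In MP+BP it was 13.3% thinned, 11.5% at 10 UMIs, 17.8% with the stricter gate and 17.4% with the stricter filter. In PD+MP it was 29.8% thinned, 32.7% without doublets, 26.0% at 10 UMIs, 37.6% with the stricter gate and 40.0% with the stricter filter. The causes were not tested. Depth limits genes under about 1 CPM, which rest on few UMIs.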
